A study of Mus musculus with 5 samples.

Results

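The 5 genes described here encode the protein uptake machinery at the apical membrane of the kidney proximal tubule: Lrp2 (megalin), Cubn (cubilin), Amn (amnionless), Dab2 and Clcn5. They were chosen by name, as 5 of the 22980 genes listed in either of 2 deposited count tables, and all 5 were listed in both tables. For each gene the unique molecular identifier (UMI) counts were summed over the barcodes of each cell type label in each library. The question put to the data was how the genes stood in proximal tubule (PT) nuclei of an obstructed kidney beside PT nuclei of a healthy one.

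The study profiled mouse kidney with 5 libraries, 1 per group. The 4 healthy libraries were whole cells by Drop-seq and nuclei by sNucDrop-seq, DroNc-seq and 10x Chromium. The fifth was 10x nuclei from a kidney labelled day 14 UUO (unilateral ureteral obstruction, in which 1 ureter is blocked so that the kidney scars). The protocols name C57BL/6 for the dissociated cells, and the labels give no age, sex or number of animals for any library. Cells had been freed by enzyme digestion and sorted on scatter, and nuclei released by Dounce homogenisation in a detergent buffer. The labels do not describe the operation or say whether the libraries came from separate animals. The libraries held 3531 Drop-seq, 3011 sNucDrop-seq, 2769 DroNc-seq, 2084 healthy 10x and 6147 UUO barcodes, of which 3022, 1821, 1605, 705 and 2352 carried a PT label. Summed UMIs over the PT labels were 5895202, 2877594, 3312481, 1187607 and 3635279, and the median PT barcode had between 1179 (sNucDrop-seq) and 1628.5 (Drop-seq) UMIs.

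Because each group was a single library, no test could be made, and every difference is between these libraries, with no replicate check. Levels are CPM, a gene's UMIs per 1000000 UMIs of the summed barcodes. Brackets give 95% intervals (exact Poisson for a level, exact conditional for a log2 ratio, Clopper-Pearson for a share), which cover counting error only. A gene was called higher or lower when 2 sums differed at least 2-fold. Cell type labels were the authors' own, made from the same counts, so differences between labels are descriptions.

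The libraries differed in more than the labelled condition. Xist, the RNA of the inactive X chromosome, was at 1321 CPM in healthy 10x nuclei and 0.405 CPM in UUO nuclei, while 4 Y-linked genes summed to 3.73 and 619 CPM. The Xist level in DroNc-seq was 1309 CPM, and Drop-seq and sNucDrop-seq held no Xist UMI. Healthy 10x and DroNc-seq nuclei therefore carried Xist with little Y-linked RNA, and the other 3 libraries the reverse. Condition, animal and sex-linked transcripts cannot be told apart in the 10x comparison. The 9 PT markers (among them the phosphate transporter Slc34a1 and the inositol oxygenase Miox) summed to 14366 CPM in healthy 10x PT nuclei and 2168 CPM in UUO PT nuclei. The UUO sum lay below that of healthy 10x podocytes (3427 CPM), so nuclei are called PT here by the authors' label and not by these levels. Outside PT the markers summed to 10.2% (healthy 10x) and 10.8% (UUO) of the PT level of their own library. The 10x libraries shared 23 barcode sequences, Drop-seq and sNucDrop-seq shared 1, and no other pair shared any.

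Megalin is a very large endocytic receptor, and cubilin is a peripheral membrane protein that depends on amnionless for its membrane anchor and its transport to the surface. Together they bind albumin, vitamin carrier proteins and many other filtered proteins. Dab2 is the clathrin adaptor that binds the cytoplasmic tail of megalin, and Clcn5 encodes ClC-5, a chloride-proton exchanger of early endosomes whose loss causes Dent disease with low-molecular-weight proteinuria.

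In the GENCODE M21 annotation of GRCm38 (mm10), Lrp2 lies on the minus strand at chr2:69424340-69586065 and Cubn on the minus strand at chr2:13276338-13491813. Amn lies on the plus strand at chr12:111271095-111276426 and Dab2 on the plus strand at chr15:6299788-6440712. Clcn5 lies on the minus strand at chrX:7153810-7319358. Amn spans 5.332 kb and the other 4 genes between 140.925 and 215.476 kb. Cubn overlaps an opposite-strand gene model and Dab2 an antisense model and a pseudogene, and Clcn5 hosts 5 microRNAs on its own strand. With the use of strand and introns in counting not given in the sources used here, reads of such partners cannot be told apart from the genes.

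The bases upstream of the start sites are shown because the receptors, Amn and Dab2 were lower together in UUO PT nuclei while Clcn5 was within 2-fold. They are RefSeq windows of build GRCm38.p6, given 5′ to 3′ on the gene's strand. Of the 4 longer ones, those of Lrp2 and Amn stop where an annotated exon begins, and those of Cubn and Clcn5 are given in full. The Dab2 stretch lies past such a stop, inside an annotated exon, so only the 30 bases around its match are given. Capitals mark matches to the motifs searched on both strands in the 250 bases before each start: GTTAAT, CAAAGTCCA (HNF4), TATAAA (the TATA box), GGGCGG (a GC box, which reads CCGCCC on the other strand) and TGACTCA (AP-1). No motif of the set contains another.
Lrp2, chr2:69586066-69586279, minus strand: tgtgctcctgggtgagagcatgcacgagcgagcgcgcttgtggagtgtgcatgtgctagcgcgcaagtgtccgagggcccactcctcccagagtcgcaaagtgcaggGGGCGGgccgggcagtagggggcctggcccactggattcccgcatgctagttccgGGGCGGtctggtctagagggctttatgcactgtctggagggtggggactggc
Cubn, chr2:13491877-13492126, minus strand: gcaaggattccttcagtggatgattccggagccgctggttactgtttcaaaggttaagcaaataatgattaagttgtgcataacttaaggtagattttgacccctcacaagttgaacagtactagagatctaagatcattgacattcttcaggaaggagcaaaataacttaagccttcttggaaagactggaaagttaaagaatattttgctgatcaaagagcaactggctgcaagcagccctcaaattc
Amn, chr12:111270846-111271094, plus strand: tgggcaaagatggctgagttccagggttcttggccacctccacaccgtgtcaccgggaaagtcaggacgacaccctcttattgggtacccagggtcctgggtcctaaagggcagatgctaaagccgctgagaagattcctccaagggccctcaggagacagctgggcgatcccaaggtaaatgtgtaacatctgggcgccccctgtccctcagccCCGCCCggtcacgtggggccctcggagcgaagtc
Dab2 start 2, chr15:6386671-6386700, plus strand: gctttagttcgaGTTAATaaacagttaagt
Clcn5 start 1, chrX:7319359-7319608, minus strand: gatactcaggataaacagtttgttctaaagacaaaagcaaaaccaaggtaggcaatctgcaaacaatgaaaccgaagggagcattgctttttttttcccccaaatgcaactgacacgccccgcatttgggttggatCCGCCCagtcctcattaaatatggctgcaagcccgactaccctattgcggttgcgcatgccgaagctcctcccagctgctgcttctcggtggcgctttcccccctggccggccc

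Lrp2 carried 2 GC boxes, at 143 to 138 and 88 to 83 bases before its start. Amn carried 1 GC box at 35 to 30 bases before its start, and the first of 2 RefSeq starts of Clcn5 carried 1 at 114 to 109. The second Dab2 start had the GTTAAT match shown, 65 to 60 bases upstream, the first Dab2 start had no match, and the second Clcn5 start had a TATAAA match at 172 to 167. Cubn had no match to these letters, and the HNF4 and AP-1 letters matched in none of the 5 genes' windows. Of all 32851 RefSeq windows, 32.7% held the GC box letters, 6.43% GTTAAT, 12.4% TATAAA, 4.46% TGACTCA and 0.384% CAAAGTCCA. A match is a description of these letters and not a bound site. G and C made up 66.4% of the Lrp2 window and 39.6% of the Cubn window.

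Against healthy 10x nuclei, megalin and cubilin transcripts were far lower in PT nuclei of the obstructed kidney, amnionless and Dab2 were lower by less, and Clcn5 differed by less than 2-fold. The place of megalin in that order turned with the healthy library used, as given below for sNucDrop-seq. Of the 5 genes, 4 were at least 2-fold lower and 0 were at least 2-fold higher in UUO PT than in healthy 10x PT nuclei. Among all 11395 genes measured in that comparison, 20.7% were at least 2-fold lower and 14.6% at least 2-fold higher. All 5 genes passed the minimum of 20 counts over both sums. The median log2 ratio was -1.95 over the 5 genes and -0.10 over all genes.

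Lrp2, the megalin receptor, had 3840 UMIs in healthy 10x PT nuclei and 1475 in UUO PT nuclei. These were levels of 3233 CPM and 406 CPM, a log2 ratio of -2.99 (-3.08 to -2.91), or 7.97-fold lower in UUO. Of all genes measured, 3.91% had a lower ratio. Cubn, the cubilin receptor, had 1045 and 279 UMIs, levels of 880 CPM (827 to 935) and 76.7 CPM (68.0 to 86.3). Its log2 ratio of -3.52 (-3.71 to -3.33), 11.5-fold lower in UUO, was the lowest of the 5, and 2.77% of genes had a lower one.

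Amn, the membrane partner of cubilin, was sparse, with 73 UMIs in healthy and 58 in UUO PT nuclei. Its level was 61.5 CPM (48.2 to 77.3) in healthy and 16.0 CPM (12.1 to 20.6) in UUO, a log2 ratio of -1.95 (-2.47 to -1.43). Dab2, the adaptor, had 2516 and 2885 UMIs, levels of 2119 CPM in healthy and 794 CPM in UUO PT nuclei. Its log2 ratio was -1.42 (-1.49 to -1.34), 2.67-fold lower in UUO, and 13.6% of genes had a lower one. The intervals of Lrp2 and Cubn did not reach that of Dab2, so against this library the receptors differed by more than the adaptor.

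Clcn5, the endosomal exchanger, had 76 UMIs in healthy and 190 in UUO PT nuclei. The levels were 64.0 CPM (50.4 to 80.1) and 52.3 CPM (45.1 to 60.2), and the log2 ratio of -0.29 had an interval from -0.68 to 0.11 that held 0. At this depth a Clcn5 difference between the libraries was not detectable against the 10x reference.

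Set against the other healthy nucleus libraries, the same 4 genes were at least 2-fold lower in UUO PT. Clcn5 was within 2-fold, but its intervals lay below 0 against sNucDrop-seq (-0.72 to -0.13) and DroNc-seq (-1.09 to -0.56). Over sNucDrop-seq PT the log2 ratios were -1.58 for Lrp2, -2.65 for Cubn, -2.08 for Amn, -1.76 for Dab2 and -0.43 for Clcn5, where 33.5% of 12580 genes were at least 2-fold lower. Over DroNc-seq PT they were -1.90, -3.31, -1.35, -1.80 and -0.82, where 29.7% of 12480 genes were at least 2-fold lower. These comparisons share the UUO library. Against sNucDrop-seq the interval of Lrp2 (-1.67 to -1.49) lay above that of Dab2 (-1.82 to -1.70), the reverse of the order against 10x, and against DroNc-seq the intervals of Lrp2 (-1.98 to -1.82) and Dab2 (-1.86 to -1.74) overlapped. Cubn had the lowest ratio of the 5 genes against each of the 3 libraries. Lrp2 in UUO was 2.98-fold lower against sNucDrop-seq, where it was at 1210 CPM, and 7.97-fold lower against healthy 10x PT nuclei at 3233 CPM. sNucDrop-seq, like UUO, carried Y-linked RNA and no Xist above 1 CPM. DroNc-seq, like healthy 10x, carried Xist, and its Lrp2 level was 1514 CPM. The part of sex-linked differences in these ratios was not tested.

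**Figure D1:**
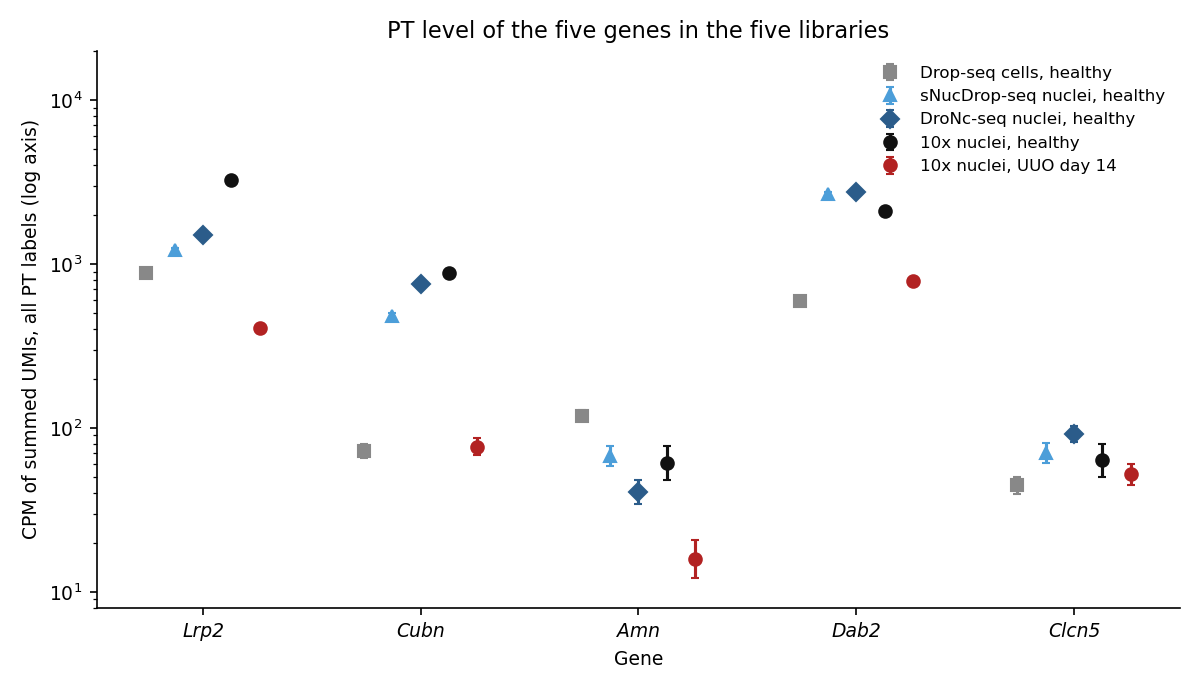
Level of the 5 genes over all PT labels in each of the 5 libraries, in CPM of summed UMIs on a log axis, with exact Poisson 95% intervals. The UUO point is the lowest for Lrp2 and Amn, close to Drop-seq for Cubn, above Drop-seq for Dab2, and among the others for Clcn5.

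The proximal tubule is divided along its length into S1, S2 and S3 segments, with most protein uptake in the first ones. The healthy table had labels for S1-S2 together and for S3, and the UUO table for S1, S2, S3, a dedifferentiated and a proliferating PT state. In healthy 10x nuclei Lrp2 was at 2550 CPM in S1-S2 (452 nuclei) and 4038 CPM in S3 (253 nuclei). In UUO nuclei it was at 873 CPM in S1 (280 nuclei), 392 CPM in S2 (1401 nuclei) and 291 CPM in S3 (473 nuclei), with 283 CPM in the dedifferentiated (117 nuclei) and 217 CPM in the proliferating label (81 nuclei). Every UUO label thus stood below both healthy labels for Lrp2.

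Cubn was at 725 CPM in healthy S1-S2 and 1062 CPM in healthy S3. Its UUO levels lay between 64.0 CPM in S1 and 102 CPM in the proliferating label, and neighbours in that order were not told apart. S2 at 66.5 CPM lay below S3 at 98.2 CPM, a log2 ratio of -0.56 (-0.98 to -0.14). Amn was at 65.4 and 56.9 CPM in the healthy labels and at 28.2, 16.5 and 11.6 CPM in UUO S1, S2 and S3. The dedifferentiated and proliferating labels held 2 Amn UMIs each, too few to place.

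Dab2 had the widest spread among the UUO segments. It was at 2710 CPM in healthy S1-S2 and 1421 CPM in healthy S3, and at 1894 CPM in UUO S1, 817 CPM in S2, 341 CPM in S3, 375 CPM in the dedifferentiated and 582 CPM in the proliferating label. UUO S1 therefore lay above healthy S3 and below healthy S1-S2. Clcn5 was at 73.2 and 53.2 CPM in the healthy labels and between 32.3 CPM (UUO S3) and 82.2 CPM (dedifferentiated) in the UUO labels. The interval of UUO S3 (20.9 to 47.7) lay below that of healthy S1-S2 (53.8 to 97.3). Neighbours in the order of all 7 labels had overlapping intervals, though the log2 ratio of UUO S2 over S3 was 0.67 (0.03 to 1.36).

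**Figure D2:**
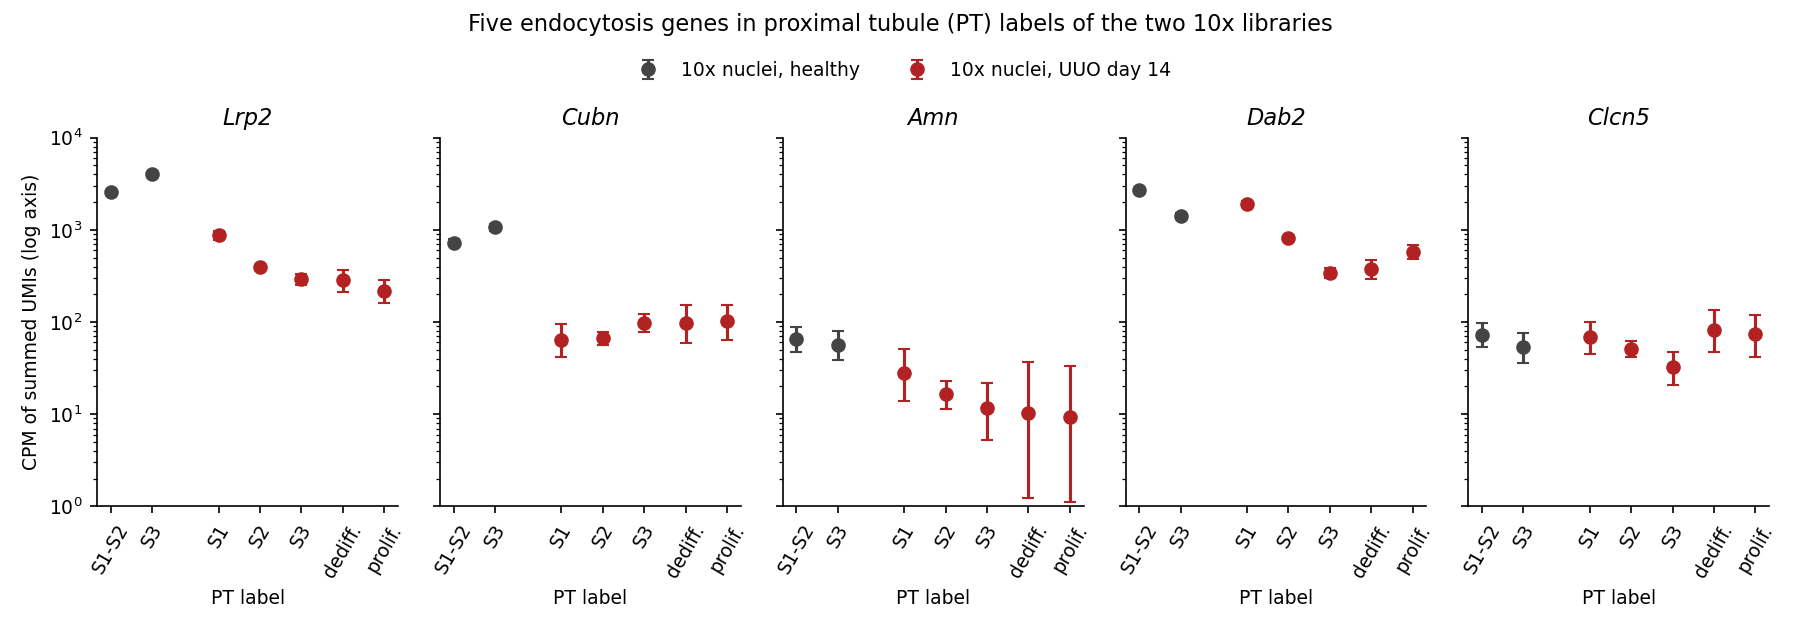
Level of each gene in the PT labels of both 10x libraries, in CPM on a common log axis, with exact Poisson 95% intervals. Lrp2 and Cubn in UUO lie below both healthy labels throughout, Dab2 steps down from S1 (1894 CPM) to S3 (341 CPM), and Clcn5 runs from 32.3 CPM in UUO S3 to 82.2 CPM in the dedifferentiated label, around the healthy labels at 73.2 and 53.2 CPM.

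Segment by segment, the log2 ratios of UUO S1 plus S2 over healthy S1-S2 were -2.44 for Lrp2, -3.46 for Cubn, -1.83 for Amn, -1.46 for Dab2 and -0.43 for Clcn5. With 4 of 5 genes at least 2-fold lower, the background was 20.4% of 10127 genes. In S3 over S3 they were -3.80, -3.43, -2.29, -2.06 and -0.72, again 4 of 5 at least 2-fold lower, with a background of 18.5% of 7647 genes. The Lrp2 difference was larger in S3 (-4.00 to -3.60) than in S1 plus S2 (-2.55 to -2.33), while the Cubn intervals overlapped.

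Taken alone, UUO S1 over healthy S1-S2 gave -1.55 for Lrp2, -3.50 for Cubn, -1.22 (-2.32 to -0.23) for Amn, -0.52 (-0.64 to -0.39) for Dab2 and -0.08 for Clcn5, so that 3 of 5 genes were at least 2-fold lower where 21.9% of genes were. UUO S2 over the same healthy label gave -2.70, -3.45, -1.99, -1.73 and -0.51, with 4 of 5 lower where 20.7% were. Against this pooled healthy label, Cubn was about equally low in UUO S1 and S2, whereas Lrp2 and Dab2 were less so in S1. The healthy labels give no level for S1 or S2 alone. A smaller difference from the healthy library in S1 therefore cannot be read from these ratios. Directly, UUO S1 over S2 was 1.16 (0.97 to 1.34) for Lrp2, 1.21 (1.09 to 1.34) for Dab2 and -0.06 (-0.73 to 0.57) for Cubn. These 2 genes of 5 were at least 2-fold higher in S1, as were 3.52% of 9180 genes.

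Along the UUO tubule Dab2 was at least 2-fold higher in S1 plus S2 than in S3 (1.53, 1.35 to 1.72), the only one of the 5 genes to be so, where 4.92% of genes were. Lrp2 (0.69, 0.48 to 0.90) and Clcn5 (0.75, 0.12 to 1.43) were also above 0 but within 2-fold, and the Amn interval (-0.39 to 1.88) held 0. Cubn was the reverse, at -0.57 (-0.97 to -0.16). In the healthy libraries 0 of 5 genes differed 2-fold between S1-S2 and S3. Among all genes, 3.14% (Drop-seq), 4.01% (sNucDrop-seq), 5.20% (DroNc-seq) and 9.59% (10x) were at least 2-fold higher in S1-S2, and 3.49%, 4.48%, 7.31% and 6.14% lower. The Dab2 log2 ratio of S1-S2 over S3, in the same order of libraries, was 0.28, 0.45, 0.94 and 0.93, with all 4 intervals above 0. The Lrp2 ratio was 0.14, 0.01 and 0.03 in the first 3 and -0.66 (-0.76 to -0.57) in healthy 10x. The Cubn ratio was 0.62, 0.25, 0.00 and -0.55. Of these 3 genes, Dab2 alone had the same direction in all 4 libraries. The Amn ratio (0.03, 0.05, 0.57 and 0.20) and the Clcn5 ratio (0.07, 0.38, 0.07 and 0.46) were also above 0 in all 4. Each of their intervals held 0.

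The segment labels of the 10x libraries differed in their markers. Of the S3 markers, Slc7a13 was at 0 in healthy 10x PT nuclei and Slc22a7 at 0 in UUO PT nuclei. The S3 marker sum was 1082 CPM in healthy S3 and 439 CPM in healthy S1-S2, against 883 CPM in UUO S3, 323 CPM in S1 and 329 CPM in S2. The S1-S2 marker sum was 1756 CPM in UUO S1 and 223 CPM in UUO S2, against 780 CPM in healthy S1-S2. The label called S2 in UUO was therefore low in markers of both segments, and its part in the S2 values was not tested.

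In the dedifferentiated and proliferating PT states the log2 ratios over all healthy 10x PT nuclei were -3.52 and -3.90 for Lrp2, -3.17 and -3.11 for Cubn, -2.50 and -1.86 for Dab2, and 0.36 and 0.21 for Clcn5. In each state 4 of 5 genes were at least 2-fold lower, Amn on 2 UMIs, where 26.9% (dedifferentiated) and 26.4% (proliferating) of genes were. Set against the other UUO PT nuclei, Dab2 alone was at least 2-fold lower in the dedifferentiated label (-1.15, -1.51 to -0.82), where 9.69% of genes were. Lrp2 was at -0.59 (-1.01 to -0.20) in the dedifferentiated and -0.97 (-1.42 to -0.55) in the proliferating label, where 0 of 5 genes and 10.7% of all genes were 2-fold lower. Cubn was no lower in either state than in the remaining UUO PT nuclei.

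Other marker lists moved with the condition as well. The injured-PT list (Havcr1, Vcam1, Sox9, Krt20, Lcn2) summed to 19.4 CPM in healthy 10x PT nuclei, from Havcr1 alone with the other 4 at 0, and to 1182 CPM in UUO PT nuclei with all 5 present. Within UUO it was 799 CPM in S1, 1174 CPM in S2, 1022 CPM in S3, 2221 CPM in the dedifferentiated and 1593 CPM in the proliferating label. Markers of the thick ascending limb summed to 1906 CPM in healthy and 138 CPM in UUO PT nuclei, 4 of 4 present in both. Fibroblast markers were 2 of 6 at 4.21 CPM and 6 of 6 at 48.4 CPM, macrophage markers 4 of 6 at 78.3 CPM and 6 of 6 at 69.3 CPM, and red blood cell markers 0 of 4 and 4 of 4 at 14.9 CPM. The part of these lists in the ratios was not tested.

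Nuclei with a UMI of an injured-PT marker were compared with nuclei without one inside UUO S1, S2 and S3, a split added after values were seen. Lrp2 was at 409 CPM in the 1424 nuclei with such a UMI and 466 CPM in the 730 without (log2 ratio -0.19, -0.35 to -0.02). Dab2 was at 774 and 972 CPM (-0.33, -0.44 to -0.21) and Cubn at 73.7 and 74.0 CPM. Nuclei with such a UMI had a median of 1468.5 UMIs and those without 1267.5, and at this depth the lack of a UMI does not mark a nucleus as uninjured.

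The lower sums went with fewer nuclei in which a transcript was seen. To compare nuclei of unequal depth, each was thinned to 500 UMIs, which left out 57 healthy and 32 UUO PT nuclei. An Lrp2 UMI was then found in 67.9% of 648 healthy 10x and 16.4% (14.9 to 17.9) of 2320 UUO PT nuclei, and a Cubn UMI in 35.5% and 3.10%. For Dab2 the shares were 57.4% (53.5 to 61.3) and 29.0% (27.2 to 30.9), and for Clcn5 2.78% and 2.63%. Before thinning, Dab2 was found in 78.9% and 55.7%, and Clcn5 in 9.79% and 7.40%. Outside PT, where free RNA can supply UMIs and the median nucleus had 1064 (healthy) and 838 (UUO) UMIs before thinning, Dab2 was found in 7.03% and 7.24%, Lrp2 in 7.80% and 1.62%, and Cubn in 3.67% and 0.529%. The PT shares of these 3 genes lay above those levels in both libraries. The Clcn5 shares outside PT, 3.90% and 3.64%, were no lower than inside.

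A nucleus may keep 1 gene of the set while lacking another, so nuclei with no UMI of any of the 5 were counted. They made up 10.6% (8.38 to 13.3) of healthy 10x PT nuclei (69 of 648) and 57.4% (55.4 to 59.4) of UUO PT nuclei (1332 of 2320) after thinning. Without thinning the shares were 6.52% and 26.6%. In the UUO library the share was 31.8% in S1, 56.0% in S2, 71.1% in S3, 69.2% in the dedifferentiated and 71.6% in the proliferating label, and in the healthy 10x library 11.3% in S1-S2 and 9.50% in S3. UUO S1 had the lowest share of the UUO labels and still lay above both healthy labels. Outside PT the share was 79.4% in the healthy and 87.7% in the UUO library. PT barcodes of the other libraries gave 45.3% (Drop-seq), 16.0% (sNucDrop-seq) and 11.5% (DroNc-seq).

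**Figure D3:**
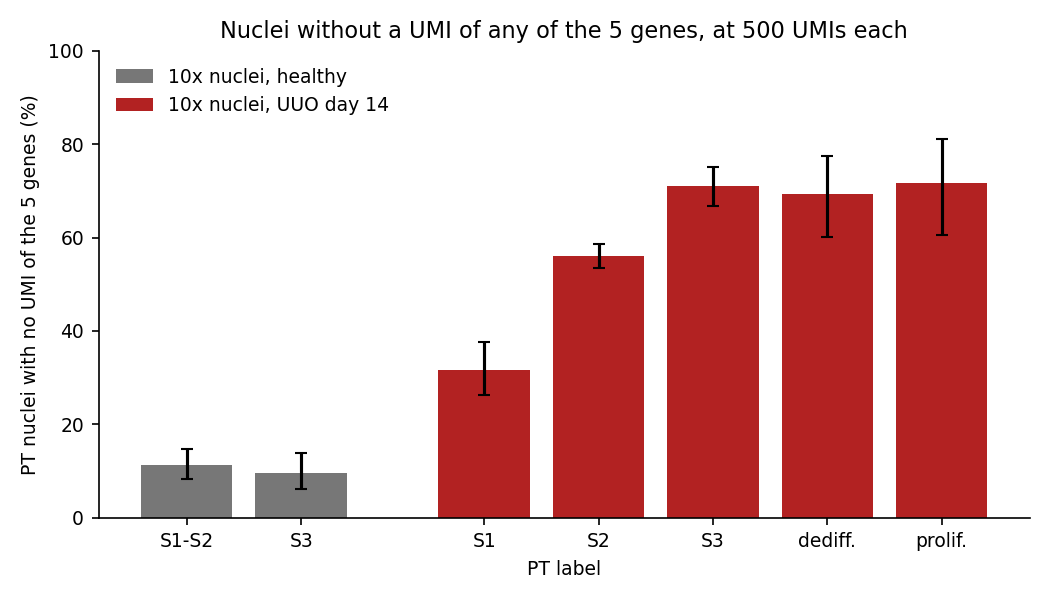
Percent of PT nuclei with no UMI of any of the 5 genes, each nucleus thinned to 500 UMIs, by PT label of both 10x libraries, with exact binomial 95% intervals. Healthy labels sit at 11.3% and 9.50%, and the UUO labels run from 31.8% in S1 to 71.6% in the proliferating label.

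Of 20 measured receptors and receptor partners, 8 were at least 2-fold lower and 2 higher in UUO PT than in healthy 10x PT nuclei. Among all 11395 genes measured, 20.7% were lower and 14.6% higher, and these shares stand beside every list below. The median log2 ratio was -0.59 for the list and -0.10 for all genes. Lrpap1, the chaperone of megalin, was at 7.15 CPM in UUO and 52.2 CPM in healthy PT nuclei (-2.87). The scaffold Pdzk1, which organises apical transporters, was at 43.2 and 518 CPM (-3.58). The sodium-proton exchanger Slc9a3 was at 54.7 and 428 CPM (-2.97). The phagocytic receptor Havcr1 (KIM-1), also an injury marker, was at 255 and 19.4 CPM (3.72).

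Of 22 measured adaptors and motors, 5 were at least 2-fold higher and 3 lower, beside 14.6% and 20.7% of all genes, with a median of 0.46. Picalm, a clathrin assembly protein, was at 1950 CPM in UUO and 360 CPM in healthy PT nuclei (2.44), and Cd2ap, an adaptor between receptors and actin, at 342 and 73.3 CPM (2.22). Myo6, the motor that moves endocytic vesicles inward, was at 541 and 529 CPM (0.03). Dab2, itself such an adaptor, stood at -1.42. In the clathrin and scission list 1 was higher and 5 lower of 19 (median 0.00). The heavy chain gene Cltc was at 379 and 211 CPM (0.84), the scission enzyme gene Dnm2 at 294 and 260 CPM (0.18), and the uncoating factor Dnajc6 at 48.7 and 221 CPM (-2.18).

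Among genes of endosomal phosphoinositides, 3 of 17 were higher and 2 lower (median 0.12), beside 14.6% and 20.7% of all genes. Inpp5b, a phosphatase, was at 132 and 312 CPM (-1.24). Its relative Ocrl, the Lowe syndrome gene, chosen after its values were seen, was at 52.3 and 48.0 CPM (0.12, -0.31 to 0.58). Of 27 Rab, recycling and retromer genes, 6 were higher and 3 lower (median 0.23). The early endosome GTPase Rab5a was at 195 and 37.0 CPM (2.39), the late endosome GTPase Rab7 at 618 and 253 CPM (1.29), and Rab11fip3, a recycling factor, at 409 and 896 CPM (-1.13).

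Acidification, the process ClC-5 serves, had 2 higher and 2 lower of 23 genes (median -0.02), beside 14.6% and 20.7% of all genes. The proton pump subunit gene Atp6v0a4 was at 184 and 1149 CPM (-2.64) and Atp6v1a at 56.7 and 131 CPM (-1.20), while Atp6v1h was at 303 and 106 CPM (1.51). Lysosome genes were 5 higher and 3 lower of 23 (median -0.03), with the protease gene Ctsl at 99.0 and 15.2 CPM (2.71) and the regulator Tfeb at 37.7 and 78.3 CPM (-1.06).

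Genes that handle vitamins carried by megalin and cubilin ligands were 1 higher and 6 lower of 11 measured (median -1.07), beside 14.6% and 20.7% of all genes. Tcn2, the vitamin B12 carrier, was at 21.7 and 229 CPM (-3.40), and the vitamin D receptor gene Vdr at 171 and 359 CPM (-1.07). Cyp24a1, which breaks down vitamin D, was the higher one, at 78.7 and 24.4 CPM (1.69). Of 13 PT transcription factors 0 were higher and 7 lower (median -1.06). Hnf4a was at 169 and 401 CPM (-1.24), Ppara at 60.5 and 555 CPM (-3.20) and Hnf4g at 407 and 360 CPM (0.18).

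Other PT transport and metabolism genes were 0 higher and 17 lower of 21 (median -3.06), beside 14.6% and 20.7% of all genes. Lrp2 (-2.99) and Cubn (-3.52) thus stood near the middle of that list and Dab2 and Clcn5 toward its upper end. Slc34a1 was at 226 and 8639 CPM (-5.26), Miox at 4.13 and 1053 CPM (-7.99), and the bicarbonate transporter gene Slc4a4 at 1374 and 1062 CPM (0.37).

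**Figure D4:**
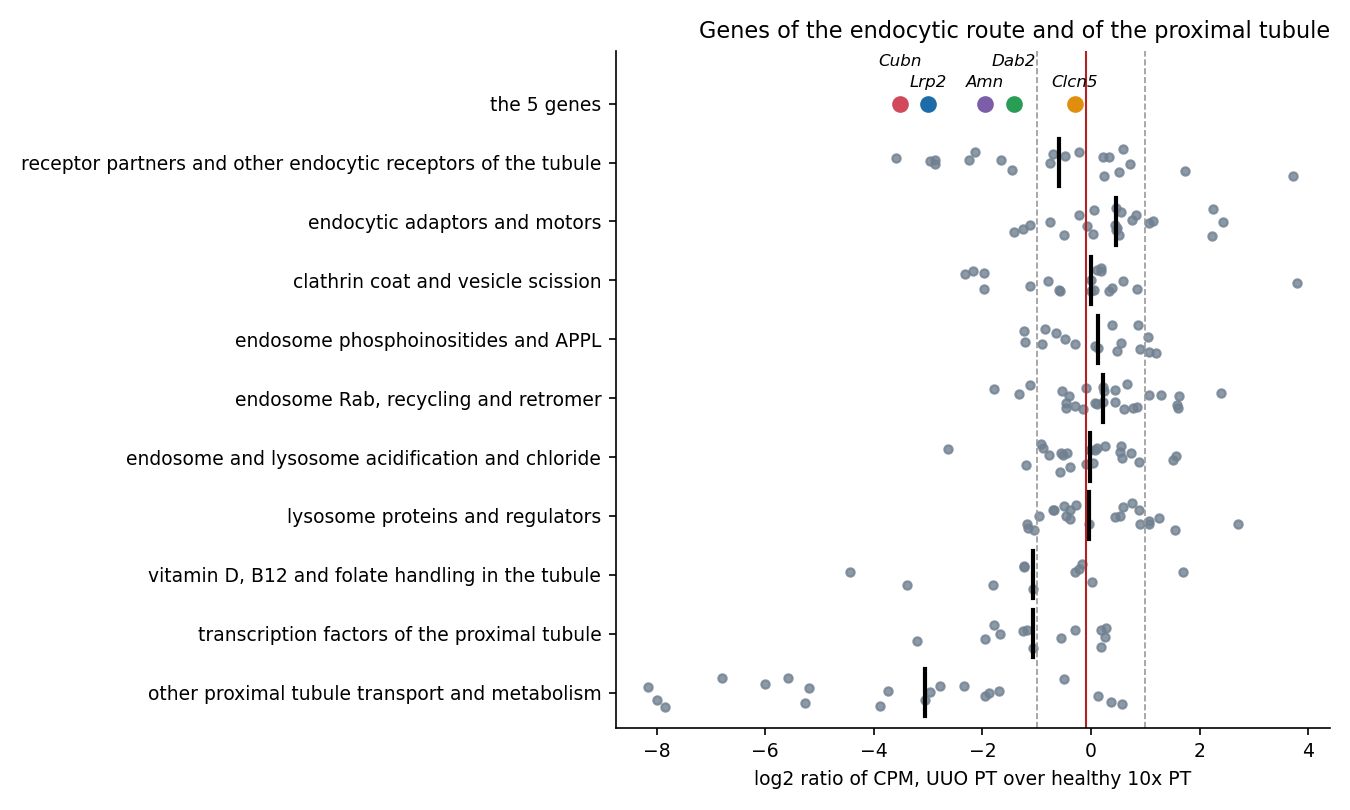
Log2 ratio of CPM, UUO PT over healthy 10x PT, for the 5 genes and for each measured gene of 10 lists, with a black bar at each list's median, a red line at the median of all genes (-0.10) and dashed lines at 2-fold. Lrp2 and Cubn lie near the PT transport median (-3.06), and single genes such as the scaffold Pdzk1 (-3.58) and the vitamin carrier Tcn2 (-3.40) reach as low in lists with higher medians.

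Among the healthy libraries, the 5 genes did not keep one order between whole cells and nuclei. Lrp2 was at 888 CPM in Drop-seq PT cells and at 1210, 1514 and 3233 CPM in PT nuclei by sNucDrop-seq, by DroNc-seq and by 10x. Cubn was at 72.4 CPM in cells and 480, 759 and 880 CPM in the nuclei. Amn was the reverse, at 119 CPM (110 to 128) in cells and 67.4, 40.8 and 61.5 CPM in the nuclei. Dab2 was at 594 CPM in cells and 2688, 2770 and 2119 CPM in the nuclei, and Clcn5 at 44.6 CPM in cells and 70.2, 92.4 and 64.0 CPM in the nuclei. Amn, the shortest of the genes, was thus the only one highest in cells.

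Over sNucDrop-seq the Drop-seq log2 ratios were -2.73 for Cubn, -2.18 for Dab2, -0.45 for Lrp2, -0.65 for Clcn5 and 0.82 for Amn. At least 2-fold lower were 2 of 5 genes, where 48.7% of 12838 genes were, with an all-gene median of -0.93. Relative to that median Cubn and Dab2 remained lower in cells and Lrp2 and Clcn5 did not, and scaling by TMM, which raised every ratio by 1.08, turned Lrp2 to 0.63 and Clcn5 to 0.42. Over DroNc-seq 3 genes were lower and 1, Amn, higher (1.54), where 48.3% and 19.7% of genes were. Over healthy 10x nuclei 3 were lower, where 46.3% were. PT mitochondrial RNA was 23.9% of UMIs in Drop-seq and between 0.0352% and 0.235% in the healthy nuclei. Platform, compartment and animal cannot be told apart here.

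Among the nuclei, Lrp2 was higher in healthy 10x than in sNucDrop-seq (1.42, 1.35 to 1.48) and DroNc-seq (1.09, 1.03 to 1.16), the 1 gene of 5 past 2-fold in each, where 13.5% and 14.7% of genes were. The other members lay within 2-fold between healthy nucleus libraries.

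Lrp2 and Dab2 were led by PT labels in every library, and Clcn5 by intercalated cell (IC) labels in every library. The Clcn5 lead in Drop-seq was IC-A at 116 CPM over 20 barcodes, not clear of the next label, macrophages. In healthy 10x, IC-B (179 CPM), IC-A (155 CPM) and endothelium (129 CPM) followed each other, with neighbours not told apart. Intercalated cells are the acid-base secreting cells of the collecting duct, and ClC-5 is known in their vesicles too. In UUO the order of Dab2 was S1 (1894 CPM), S2 (817 CPM), IC (635 CPM), proliferating PT (582 CPM), macrophages (509 CPM) and podocytes (418 CPM), and S2 stood clear of IC while IC and proliferating PT did not differ beyond counting error. Cubn and Amn were led by PT labels in the 4 nucleus libraries. In Drop-seq the highest Cubn level was in endothelium, at 188 CPM over 20 barcodes, not clear of the next label. Levels outside PT were read beside the summed level of the 9 PT markers there, which gauges free PT RNA. With the libraries ordered as Drop-seq, sNucDrop-seq, DroNc-seq, 10x and UUO, Lrp2 outside PT was 29.2%, 44.3%, 32.3%, 7.40% and 11.5% of its PT level, and the PT markers were 27.0%, 40.8%, 31.1%, 10.2% and 10.8%. Lrp2 outside PT thus lay close to the free RNA gauge in each library.

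Dab2 outside PT was 31.4%, 45.5%, 35.3%, 11.7% and 24.3% of its PT level, which was above the gauge chiefly in UUO. In healthy 10x podocytes (53 nuclei, median 1565 UMIs), the filter cells of the glomerulus, Dab2 was at 42.1% of its PT level (median 1491 UMIs) beside 23.9% for the PT markers. In UUO podocytes (87 nuclei) it was at 52.6% beside 23.5%. Dab2 in UUO macrophages was at 64.2% beside 19.8%, in the Fib.1 fibroblast label at 41.6% beside 19.0%, and in endothelium at 35.7% beside 13.6%. Lrp2 stood above the gauge in the Fib.2 fibroblast label, at 65.5% beside 20.5%, on 31 UMIs of 68 nuclei.

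Clcn5 was at 78.0%, 103%, 123%, 132% and 134% of its PT level outside PT. In UUO IC nuclei it was at 320 CPM, a log2 ratio over PT of 2.61 (2.23 to 2.99). Healthy IC nuclei had 169 CPM by 10x (1.40, 0.77 to 2.00), 239 CPM by DroNc-seq (1.37, 1.02 to 1.72) and 195 CPM by sNucDrop-seq (1.48, 0.94 to 1.98). Drop-seq IC cells held 7 Clcn5 UMIs, with an interval that held 0 (1.12, -0.21 to 2.18). Clcn5 was the 1 gene of 5 at least 2-fold higher in IC than in PT in UUO, where 13.3% of genes were, in healthy 10x, where 13.1% were, and in DroNc-seq, where 11.7% were. Between the subtypes, Clcn5 was at 416 CPM in IC-A and 137 CPM in IC-B in DroNc-seq (1.60, 0.96 to 2.26), the 1 of 4 measured genes past 2-fold, where 6.02% of genes were. In sNucDrop-seq it was at 239 and 175 CPM (0.45, -0.58 to 1.44) and in healthy 10x at 155 and 179 CPM (-0.21, -1.33 to 0.86), and Drop-seq had 4 and 3 UMIs, so the subtypes were not told apart in those 3 libraries.

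**Figure D5:**
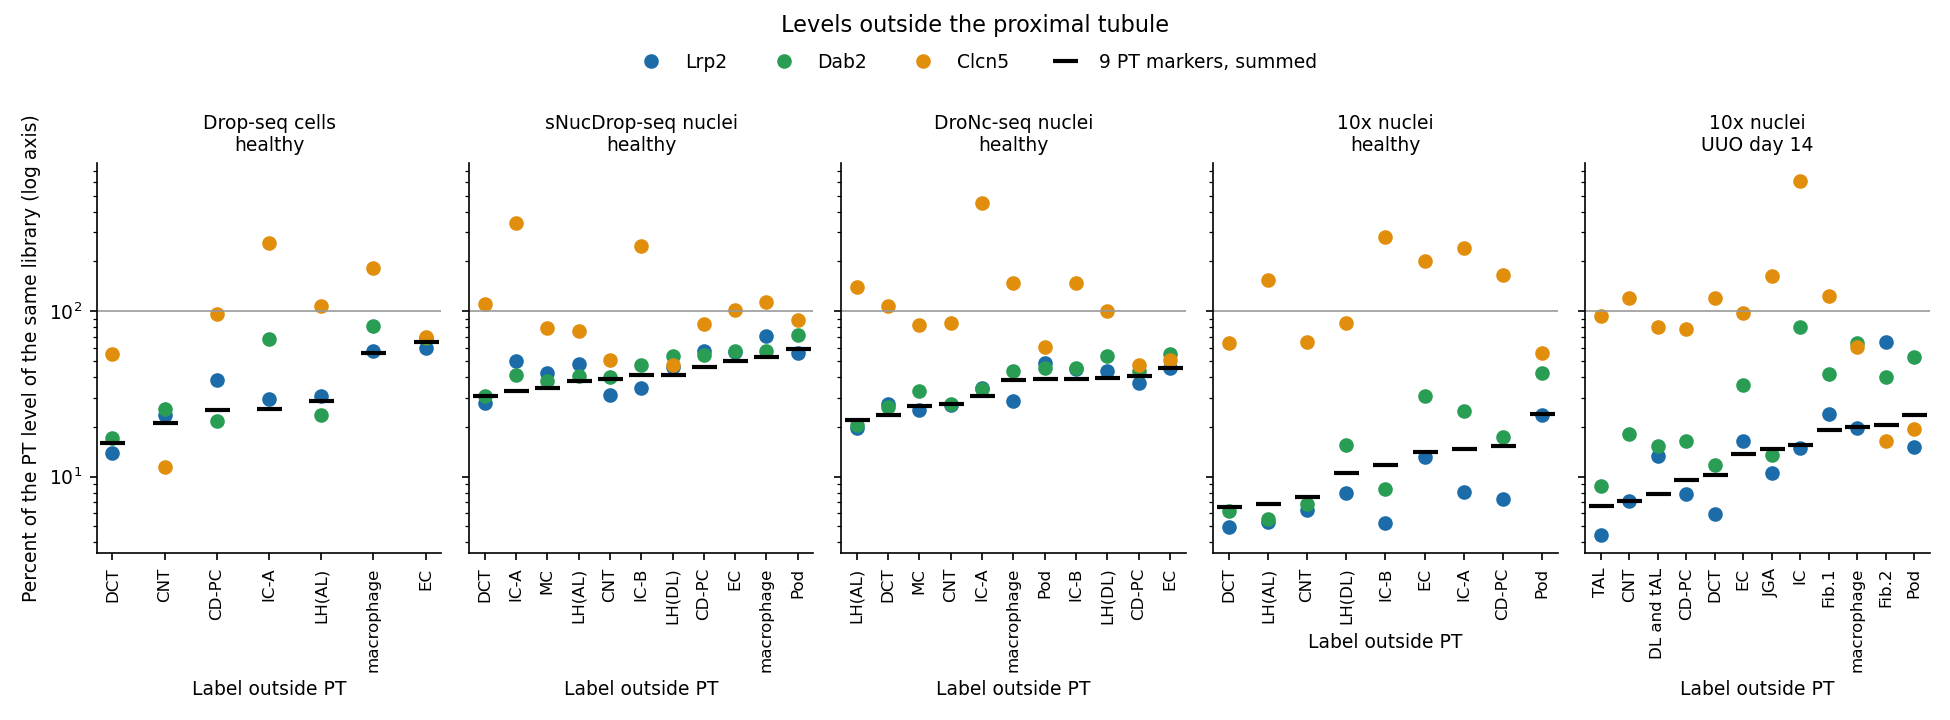
Level of Lrp2, Dab2 and Clcn5 in each label outside PT with at least 20 barcodes, as percent of the PT level of the same library on a log axis, with the summed level of 9 PT markers as a bar. Lrp2 stands above the marker bar in UUO Fib.2 (65.5% beside 20.5%), Clcn5 is above 100% in the intercalated labels, and Dab2 in UUO IC reaches 80.1% where the markers are at 15.6%.

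In UUO, the IC label (295 nuclei, median 719 UMIs) stood apart from the PT labels. Dab2 was at 635 CPM (543 to 739) there and 323 CPM (249 to 411) in healthy 10x IC nuclei (159 nuclei, median 1081 UMIs), a log2 ratio of 0.98 (0.56 to 1.41). Clcn5 was at 320 CPM (255 to 395) and 169 CPM, 0.92 (0.33 to 1.54). The healthy value pools 2 subtypes. Dab2 was at 524 CPM (381 to 704) in healthy IC-A and 179 CPM (111 to 273) in healthy IC-B, a log2 ratio of 1.55 (0.77 to 2.38), and the UUO interval overlapped that of IC-A. For Clcn5, healthy IC-A was at 155 CPM (82.5 to 265) and healthy IC-B at 179 CPM (111 to 273). Both lay below the UUO IC level, with intervals that overlapped its own. The subtype mix and the condition cannot be told apart in the Dab2 ratio. The part of free PT RNA in the healthy IC-A and IC-B levels of Dab2 was not tested. The part of the mix in the Clcn5 ratio was not tested. Lrp2 was at 60.2 and 209 CPM, -1.79 (-2.72 to -0.93), with 16 and 42 UMIs. Of 4 measured genes, 2 (Lrp2 and Cubn) were at least 2-fold lower and 0 higher, where 12.4% and 16.0% of 4440 genes were. After thinning, a Dab2 UMI was found in 20.3% of UUO and 10.3% of healthy IC nuclei, and a Clcn5 UMI in 16.7% and 7.59% (3.85 to 13.2).

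Markers in that label differed too. IC-A markers summed to 846 CPM in UUO (3 of 4, Slc4a1 at 0) and 1589 CPM in healthy IC nuclei (4 of 4), and IC-B markers to 380 and 3412 CPM (3 of 3 in both), so the IC-B sum differed by more than the IC-A sum. PT markers summed to 338 CPM (6 of 9, Slc22a6, Slc22a8 and Miox at 0) and 1872 CPM (9 of 9). Injured-PT markers were 5 of 5 at 530 CPM against 1 of 5 at 4.97 CPM, macrophage markers 5 of 6 at 94.0 CPM against 2 of 6 at 9.93 CPM, and fibroblast markers 6 of 6 at 94.0 CPM against 1 of 6 at 4.97 CPM. Healthy IC nuclei thus held more PT marker RNA than UUO IC nuclei. Dab2 was at 0.152 times its PT level in healthy 10x IC nuclei and 0.801 times in UUO IC nuclei. The part of these lists in the Dab2 and Clcn5 values was not tested.

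Outside PT as a whole, Lrp2 was at 46.6 CPM in UUO and 239 CPM in healthy 10x nuclei (-2.36), Cubn at 12.2 and 81.8 CPM (-2.75), Amn at 5.56 and 13.1 CPM (-1.23), Dab2 at 193 and 248 CPM (-0.37) and Clcn5 at 69.9 and 84.7 CPM (-0.28). Here 3 of 5 genes were at least 2-fold lower, where 16.1% of genes were. These genes, Lrp2, Cubn and Amn, were also at least 2-fold lower in PT, so the values outside PT are not a separate result. The part of free PT RNA in them was not tested. In podocytes Lrp2 was at 61.1 CPM (6 UMIs) in UUO and 759 CPM (85 UMIs) in healthy nuclei, and Dab2 at 418 and 892 CPM (-1.10). All 3 genes with enough counts there were at least 2-fold lower, where 15.9% of genes were. PT markers in podocytes were 509 CPM in UUO (5 of 9, Slc34a1, Slc22a6, Slc22a8 and Miox at 0) and 3427 CPM in healthy nuclei (9 of 9), beside podocyte markers of 5327 and 4730 CPM (5 of 5 in both). The part of free PT RNA in the podocyte values was not tested.

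The genes whose pattern over labels was most like each member were sought among 5324 genes in the 4 nucleus libraries, as the mean Pearson r of log2 CPM over 10 to 16 labels of a library. For Lrp2 they included Pter (0.93), the cation exporter Slc47a1 (0.92), Keg1 (0.91) and Lactb2 (0.91). Cubn (0.89) and Dab2 (0.88) were 11th and 12th for Lrp2. For Cubn they were Pter (0.90), the folate receptor Folr1 (0.89), Lrp2 (0.89), Slc47a1 (0.89) and Mlxipl (0.88), and for Dab2 Acsm2 (0.89), Lrp2 (0.88), Slc47a1 (0.87), Pter (0.87) and Folr1 (0.87).

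Clcn5 had another neighbourhood: Syn2 (0.79), Cpeb2 (0.73), Rabep2 (0.73), the peptide-amidating enzyme gene Pam (0.71) and Ralgapa2 (0.71). Its r with Lrp2 was -0.13, with Cubn 0.06 and with Dab2 -0.02. Amn was below the level minimum of 20 CPM. Labels of a library share its depth and free RNA, so these values describe the profiles only.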

How the data were processed

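The authors deposited 2 tables of raw UMI counts per gene and barcode, 1 for the 4 healthy libraries and 1 for UUO, with a table of cell type labels; per the deposited readme the counts came from the zUMIs pipeline. The submitters' processing notes name STAR 2.5.3a and build mm10. How introns, strand, barcode filters and doublets were handled: not given in the sources used here. All deposited barcodes were kept and doublets were not called; 0 columns belonged to no sample. DroNc-seq and healthy 10x list no gene seen in fewer than 6 and 4 barcodes.

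Counts were summed per label and library and scaled to CPM of all UMIs of the sum. PT labels were S1-S2 and S3 in healthy libraries and S1, S2, S3, dedifferentiated and proliferating PT in UUO. All genes listed in both libraries with at least 20 counts in the 2 sums were measured. Intervals at 95% cover counting error only: UMIs mark molecules, but barcodes of 1 library are not replicates. Motif searches used RefSeq windows of GRCm38.p6. The interval and calling code was tested on simulated counts. TMM factors came from edgeR 4.0.16 in R 4.3.3, and all else from Python 3.11.15 with pandas 2.3.3, scipy 1.17.1, matplotlib 3.10.9 and numpy 2.4.6.

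The 5 genes, the 10 lists and the marker lists were chosen with earlier results of these data known. Genes named from a list were its 3 with the largest mean CPM and those with 20 counts or more, a 2-fold difference and an interval clear of 0; not every one is printed, and some are not reported here. Genes alike in pattern were the 5 with the highest mean r over labels of at least 50 barcodes, of log2(CPM + 10), among genes averaging at least 20 CPM in each nucleus library. Other genes named were chosen after their values were seen. The alternatives were other scaling factors and totals, barcode filters, label weights, healthy references and thinning depths.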

Additional observations from a re-analysis of the deposited data

Results flagged for a closer look

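The log2 ratio of UUO IC over healthy 10x IC nuclei was 0.98 for Dab2 and 0.92 for Clcn5, each within 2-fold with an interval above 0, while in some other labels the ratio of the same gene had an interval below 0. For Dab2 the ratio of IC exceeded that of S1 plus S2 by 2.43, of S3 by 3.04, of podocytes by 2.07, of endothelium by 2.17, of the thick ascending limb by 1.74 and of collecting duct principal cells by 2.47. For Clcn5 it exceeded that of the thick ascending limb by 1.93 and that of principal cells by 2.29. In the distal convoluted and connecting tubule labels the intervals held 0 for both genes (Dab2 -0.49 and -0.01, Clcn5 0.62 and 0.59). With 1 library per condition these differences were not tested. The UUO IC label pools what the healthy table splits into IC-A and IC-B. In healthy 10x nuclei Dab2 was at 524 CPM (381 to 704) in IC-A and 179 CPM in IC-B. UUO IC at 635 CPM (543 to 739) overlapped IC-A, so for Dab2 a different mix of subtypes and a difference within them cannot be told apart. Pooled healthy 10x IC nuclei had Dab2 at 0.152 times its PT level. How much of the healthy IC-A and IC-B levels was free PT RNA was not tested. Clcn5 was at 155 CPM in healthy IC-A and 179 CPM in healthy IC-B, both below UUO IC at 320 CPM with overlapping intervals. The part of the mix in the Clcn5 ratio was not tested.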

How the results depend on the processing

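No paired analysis was possible because each group is 1 library. Over 14 settings the UUO PT over healthy 10x PT log2 ratio ran from -3.12 to -1.58 for Lrp2, -3.63 to -2.65 for Cubn, -2.22 to -1.35 for Amn, -1.80 to -1.23 for Dab2 and -0.82 to -0.10 for Clcn5, so all 5 kept their direction and their side of 2-fold in those settings. Beyond counting error, Lrp2 moved to -2.82 (TMM), -2.80 (median-of-ratios), -2.84 (mean CPM over barcodes), -3.12 (segments weighted equally), -1.58 (sNucDrop-seq as reference) and -1.90 (DroNc-seq). Dab2 moved to -1.24, -1.23, -1.76 (segments equal), -1.76, -1.80 and -1.64 (level outside PT subtracted). Cubn moved to -2.65 and -3.31 with those references, and Amn to -1.35 and Clcn5 to -0.82 with DroNc-seq. TMM raised all UUO over healthy 10x PT ratios by 0.17 and median-of-ratios by 0.19.

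The Drop-seq medians depended on scaling. Over sNucDrop-seq the median of the 5 genes was -0.65, and 0.42 by TMM, 0.42 by median-of-ratios and -0.22 without mitochondrial and ribosomal protein genes. Over DroNc-seq it was -1.05, the value of Clcn5, and -0.019, 0.016 (the reverse direction, for Clcn5 as for the median) and -0.62. Over healthy 10x it was -1.83, and -0.74, -0.80 and -1.40, then -1.56 on shared genes, -1.94 without Malat1, -1.70 by mean CPM and -1.69 with segments equal. The cause was not tested.

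With a minimum of 100 counts, genes at least 2-fold higher in UUO PT went from 1666 to 1108 and lower from 2360 to 989, since fewer genes were measured. Nuclei without a UMI of the 5 genes were 20.3% and 69.7% at 300 UMIs and 2.64% and 36.5% at 1000 UMIs, healthy then UUO. Of the remaining recomputed values of these results, 113 stayed within the limit set for them. That limit was the counting interval of the main value. For counts of genes it was a fixed fold range around the main count. For a median of the 5 genes it was the interval of the gene nearest that median. Depth limits Amn and Clcn5 most, with 73 and 76 UMIs in healthy 10x PT nuclei.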
